A study of Macaca mulatta with 12 samples.

Results

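The 9 early response genes *EGR1*, *EGR2*, *IER2*, *IER3*, *IER5*, *DUSP1*, *GADD45B*, *BTG2* and *NR4A1* were looked up by symbol among the 23993 Ensembl genes of the macaque liver transcript count table. Identifiers carrying the symbols *EGR2*, *GADD45B*, *IER5* and *NR4A1* were found, so 4 of the 9 could be measured here. The other 5, *EGR1*, *IER2*, *IER3*, *DUSP1* and *BTG2*, matched no identifier and are not analysed here. Whether they were counted under identifiers without a symbol is not known. Of the 4 measured genes, 3 passed the filter on low counts and were tested among 18373 genes. *IER5* did not pass and is given by its counts.

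Biopsies came from the livers of 6 male rhesus macaques aged about 4.6 years, each sampled before ethanol (baseline) and again at the end of an induction phase (post-induction). All animals drank 0.5, 1 and 1.5 g ethanol per kg per day during the 90 days of induction, 30 days at each dose. Over 12 months of free access afterwards, daily intake reached 1.5 g per kg in the 3 animals classed as light drinkers (LD) and 4 g per kg in the 3 classed as very heavy drinkers (VHD), so the class names describe drinking that came after both biopsies. The 4 groups, LD and VHD at baseline and post-induction, hold 3 libraries each, and no group of animals without ethanol enters the comparisons, so the induction and the passage of time between the biopsies cannot be told apart.

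Early response genes are switched on within minutes of a stimulus, without the need for new protein synthesis. Growth factors and stress signals reach them through the ERK, JNK and p38 kinases, which activate transcription factors already present in the cell, such as SRF with its ELK partners and CREB. Their transcripts are short-lived, and many of their products are transcription factors or brakes on the signal that induced them. In the liver this programme is best known from regeneration and injury, where hepatocytes leave rest. *GADD45B* encodes a stress sensor that binds the kinase MEKK4 upstream of p38 and JNK and is a target of NF-kappaB. *EGR2* encodes a zinc finger transcription factor related to EGR1, *NR4A1* the orphan nuclear receptor Nur77, and *IER5* a nuclear protein known to act on the heat shock factor HSF1.

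In Mmul_8.0.1, *GADD45B* (ENSMMUG00000003468) occupies bases 2360175 to 2362712 of chromosome 19 (plus strand), and *EGR2* (ENSMMUG00000010256) bases 69903515 to 69907873 of chromosome 9 (plus strand). *IER5* (ENSMMUG00000031286) occupies bases 186321520 to 186322504 of chromosome 1 (minus strand). Each of these 3 genes had 1 transcript in the table. *NR4A1* (ENSMMUG00000022922) occupies bases 50340602 to 50741803 of chromosome 11 (plus strand) and had 4 transcripts, of which ENSMMUT00000046604 held 81.7% of the counts. The long span comes from ENSMMUT00000046606, which reaches over 400008 bases and held 2.82% of the counts.

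Library totals ran from 5970033 counts (LD baseline 1) to 25060718 counts (VHD baseline 3), and 20704 to 23348 genes were detected per library. The first principal component (31.4% of the variance) placed 5 libraries on one side and 7 on the other. The 5 were VHD baseline 2 and 4 libraries taken after induction (replicates 2 and 3 of LD, 1 and 3 of VHD). Sides were set by the sign of this component. VHD post-induction 1 (7.22) and VHD baseline 3 (-5.61) lay close to 0, so the sides are not well separated. The other libraries of the 5 ran from 45.2 to 79.3. On the second (20.6%), the outlying libraries were VHD post-induction 2 and VHD baseline 3. Hepatocyte markers summed to between 132400 and 251500 CPM in the 12 libraries. In tissue RNA such as this, fewer cells of a type and less RNA per cell cannot be told apart. The unit CPM is edgeR's count scaled to a common library size with TMM factors. CPM are compared here between libraries and never between genes, because they are not divided by length.

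*GADD45B* was lower post-induction than at baseline in 6 of 6 animals, which was the case for 3.74% of the tested genes. In LD animals 1, 2 and 3 it stood at 56.6, 291.9 and 150.5 CPM at baseline and at 28.0, 10.7 and 55.9 CPM post-induction. In VHD animals 1, 2 and 3 it stood at 195.4, 55.7 and 215.5 CPM at baseline and at 23.7, 36.4 and 17.1 CPM post-induction. Every library held at least 165 counts of the gene, so counting error was small. Within each class the baseline and post-induction libraries did not overlap, although in LD the gap between 56.6 and 55.9 CPM is smaller than the 95% Poisson interval of either value (50.6 to 63.1 and 51.4 to 60.6 CPM). Intervals of this kind cover counting error only. Post-induction libraries lay below all baseline libraries for 6.17% of the tested genes in LD and for 3.89% in VHD. Over both classes the ranges met, since VHD baseline 2 (55.7 CPM) was just under LD post-induction 3 (55.9 CPM), and none of the 3 tested early response genes was among the 0.849% whose 6 post-induction libraries were all below the 6 baseline libraries.

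The size of the *GADD45B* difference varied widely among the animals. It was 27.4-fold lower in LD animal 2, 12.6-fold lower in VHD animal 3 and 8.23-fold lower in VHD animal 1. It was 2.69-fold lower in LD animal 3, 2.02-fold lower in LD animal 1 and 1.53-fold lower in VHD animal 2. The animals with the higher baseline levels were those with the larger ratios, and the order of the 6 was the same by both. The baseline level enters the ratio, so this order is a description. Both classes held animals with large and with small ratios.

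**Figure D1:**
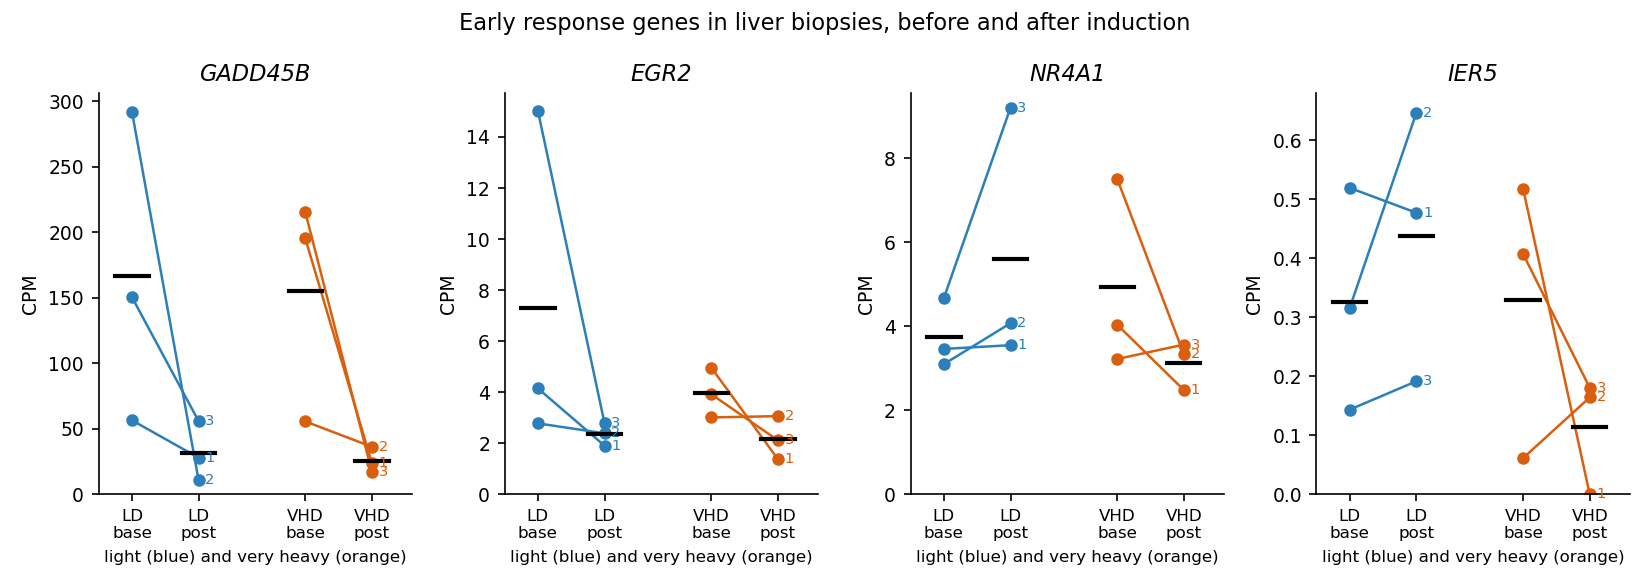
CPM of the 4 measured early response genes in LD (blue) and VHD (orange) animals at baseline and post-induction. Points are libraries, lines join the biopsies of 1 animal, numbers name the animals and black bars are group means. *GADD45B* was lower post-induction in all 6 animals, *EGR2* in 5 and *NR4A1* in 2, and each gene has its own axis.

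The response (post-induction minus baseline) averaged over LD and VHD, called the mean response, was -2.50 ± 0.50 (SE) for *GADD45B* on the log2 scale, 5.65-fold lower, with a 95% interval from -3.57 to -1.43. It ranked 29th by size of the decrease and 59th by p among the 18373 genes. The unadjusted p was 0.000212, and the p adjusted by Benjamini-Hochberg over all genes in edgeR's quasi-likelihood test was 0.065, which misses the threshold of 0.05. DESeq2 gave the same gene an adjusted p of 5.08e-05, and leaving out VHD baseline 2 gave a log2 value of -2.77 with an adjusted p of 0.0493 in edgeR. With a term for the animal (replicate block) the value was -2.38 ± 0.59 with an edgeR adjusted p of 0.276. The value was between -2.85 and -2.00 in all 23 alternative settings, as the plot of *GADD45B* under each setting shows, and its call depended on the test and on the libraries used.

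**Figure D2:**
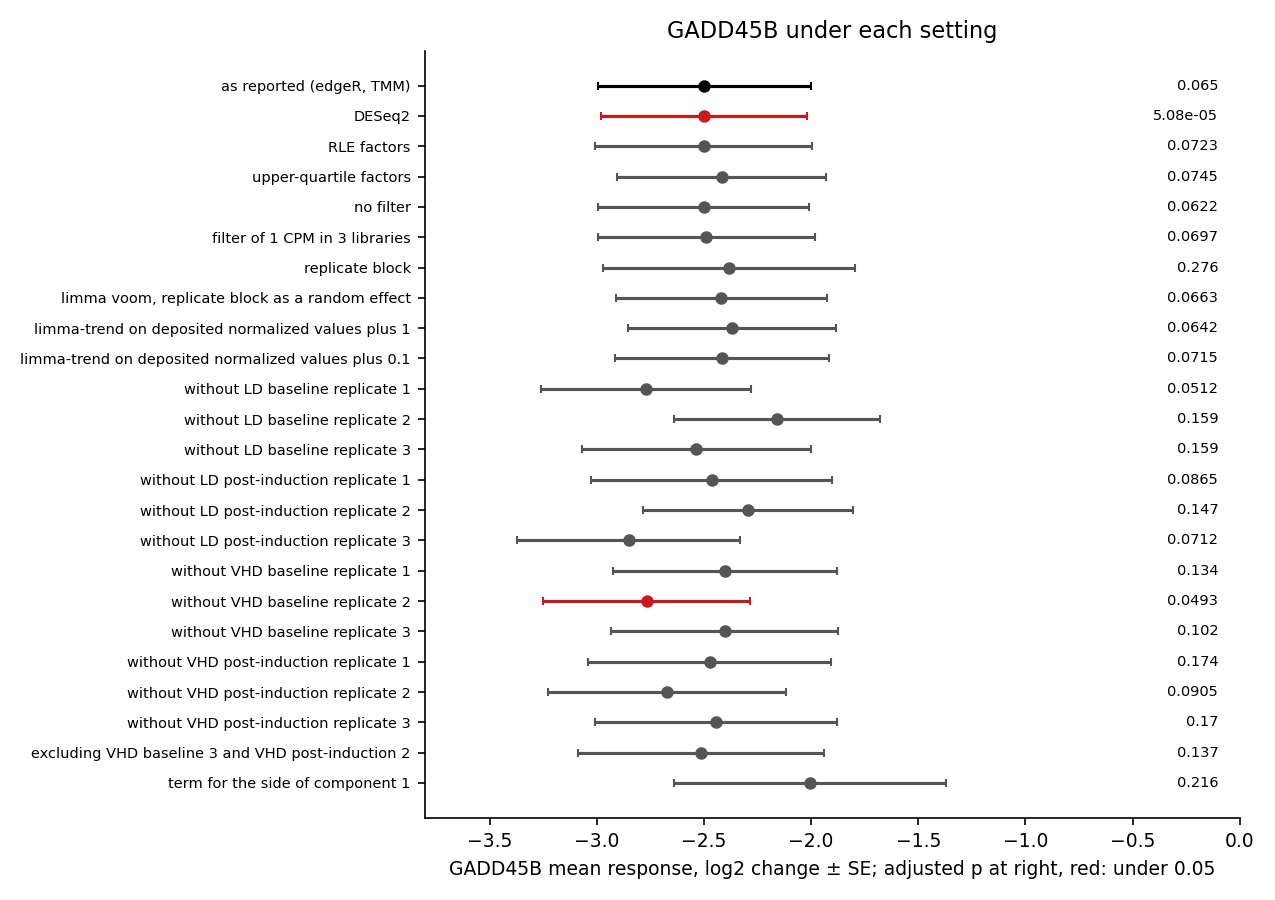
Mean response of *GADD45B* (log2 change post-induction minus baseline, with standard error) as reported and under each of 23 alternative settings, with the adjusted p at the right. Values in red pass 0.05, which was the case with DESeq2 and without VHD baseline replicate 2, and every point lies between -2.85 and -2.00.

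Within the classes, the response of *GADD45B* was -2.40 ± 0.70 in LD (95% interval -3.91 to -0.89) and -2.60 ± 0.71 in VHD (-4.12 to -1.07), with edgeR adjusted p of 0.775 and 0.698. The LD means were 166 ± 118 CPM before and 31.5 ± 22.8 CPM after, and the VHD means 155.5 ± 87.0 and 25.7 ± 9.78 CPM (SD, n = 3 each). By group mean the order was LD baseline, VHD baseline, LD post-induction and VHD post-induction, and the classes overlapped at each time. The LD value was -1.72 without LD baseline 2, the library with the highest level, and -3.11 without LD post-induction 3. DESeq2 passed the gene in VHD (adjusted p = 0.0318) and not in LD (adjusted p = 0.085). The difference of the responses, VHD minus LD, was -0.19 ± 0.94, and its interval from -2.22 to 1.84 covers differences of several fold either way.

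The libraries on the 2 sides of the first component held different shares of the time points, so *GADD45B* was also read within each side. VHD post-induction 1 and VHD baseline 3 lay close to the dividing value, so the sides are not well separated. Among the 7 libraries, 5 baseline libraries ran from 56.6 to 291.9 CPM and 2 post-induction libraries from 28.0 to 36.4 CPM. Among the 5 libraries, the single baseline library stood at 55.7 CPM, within the 10.7 to 55.9 CPM of the 4 post-induction libraries. With a term for the side in the edgeR fit, chosen after seeing the data, the mean response was -2.00 ± 0.64 (adjusted p = 0.216). The post-induction libraries were thus lower among the 7, and the other side had too few baseline libraries for a comparison.

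*MYC* and *JUNB*, which encode the growth regulator MYC and a JUN protein of AP-1, had the patterns most like *GADD45B* among 10488 candidate genes. Over the 12 libraries *MYC* had a Pearson r of 0.96 with it and a Spearman rho of 0.94, and *JUNB* 0.95 and 0.93, on log2 CPM. After subtraction of the group means r was 0.93 for *MYC* and 0.86 for *JUNB*. The order of libraries within a group was not always the same, since VHD baseline 3 was highest for *GADD45B* and VHD baseline 1 for both *MYC* and *JUNB*. *MYC* was at 122.7 CPM in LD baseline 2 and 5.04 CPM in LD post-induction 2, the same pair of biopsies that had the widest gap in *GADD45B*. *JUNB* was at 46.1 and 0.776 CPM there. The libraries share their depth and composition between genes, and these values are descriptions over 12 libraries from 6 animals.

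**Figure D3:**
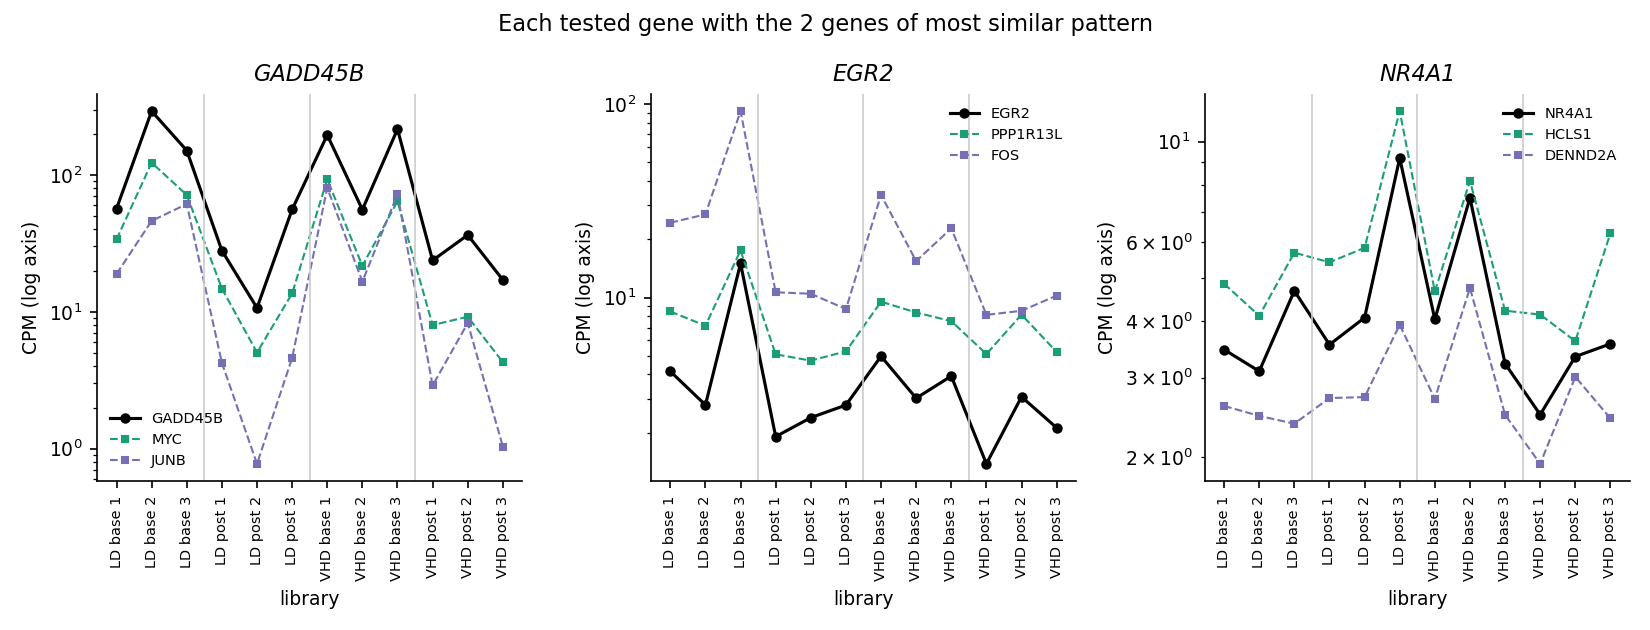
CPM (log axis) of *GADD45B*, *EGR2* and *NR4A1* (black) in the 12 libraries, each with the 2 genes of highest Pearson r (coloured, dashed), grouped by class and time. *GADD45B*, *MYC* and *JUNB* were lower post-induction in every animal, *EGR2*, *PPP1R13L* and *FOS* peaked in LD baseline 3, and *NR4A1* and *HCLS1* peaked in LD post-induction 3 and VHD baseline 2.

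*EGR2* was lower post-induction in 5 of 6 animals, but much of its mean difference came from 1 library. In LD animals 1, 2 and 3 it stood at 4.15, 2.78 and 15.0 CPM at baseline and at 1.91, 2.39 and 2.78 CPM post-induction. In VHD animals it stood at 4.97, 3.02 and 3.93 CPM at baseline and at 1.38, 3.07 and 2.12 CPM post-induction. LD baseline 3, with 209 counts and an interval of 13.1 to 17.2 CPM, was far above all other libraries, whose counts ran from 10 to 106. The LD groups hardly parted (2.783 CPM for the lowest baseline and 2.779 CPM for the highest post-induction library), and the VHD groups overlapped through animal 2, whose biopsies differed by less than counting error. The LD means were 7.32 ± 6.70 CPM before and 2.36 ± 0.44 CPM after, and the VHD means 3.97 ± 0.98 and 2.19 ± 0.85 CPM (SD, n = 3 each).

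The mean response of *EGR2* was -1.24 ± 0.40 on the log2 scale (95% interval -2.09 to -0.38), with an unadjusted p of 0.0081 and an edgeR adjusted p of 0.344. Without LD baseline 3 it was -0.69 ± 0.31 (edgeR adjusted p = 0.821). The LD response was -1.65 ± 0.57 (-2.87 to -0.43) with an edgeR adjusted p of 0.856, and -0.54 without LD baseline 3. The VHD response was -0.83 ± 0.56 (-2.03 to 0.38), and the difference of the responses was 0.82 ± 0.79 (-0.88 to 2.52). *EGR2* was thus below its baseline level in 5 of 6 animals without passing the adjusted test in any setting tried. The share of all tested genes lower in 5 of 6 animals was not counted, and 42.6% of all mean responses were below 0.

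*PPP1R13L*, which encodes iASPP, an inhibitor of p53, and *FOS*, the AP-1 partner of the JUN proteins, had the patterns most like *EGR2*. Pearson r was 0.93 for *PPP1R13L* (Spearman rho 0.92) and 0.90 for *FOS* (rho 0.73). Both peaked in LD baseline 3, *PPP1R13L* at 17.5 CPM and *FOS* at 92.2 CPM, with next highest values of 9.53 and 34.0 CPM in VHD baseline 1. Both genes were chosen by their r with *EGR2*, on which LD baseline 3 weighs heavily, so the shared peak in that library is a description. *GADD45B* was not at its highest there. Between *EGR2* and *GADD45B* themselves r was 0.59 and rho 0.70.

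*NR4A1* showed no common direction. In LD animals 1, 2 and 3 it stood at 3.46, 3.10 and 4.67 CPM at baseline and at 3.55, 4.07 and 9.20 CPM post-induction. In VHD animals it stood at 4.04, 7.51 and 3.22 CPM at baseline and at 2.48, 3.34 and 3.56 CPM post-induction. It was lower post-induction in 0 of 3 LD and in 2 of 3 VHD animals, and the time points overlapped in both classes. LD post-induction 3 and VHD baseline 2 were the highest libraries, and the other 10 lay between 2.48 and 4.67 CPM.

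The mean response of *NR4A1* was -0.04 ± 0.32 (95% interval -0.72 to 0.65; edgeR adjusted p = 0.993), and its sign changed with the settings. The LD response was 0.57 ± 0.45 (-0.40 to 1.54) and the VHD response -0.64 ± 0.45 (-1.61 to 0.33). Without LD post-induction 3 the LD response was 0.02. The difference of the responses was -1.21 ± 0.64 (-2.58 to 0.16), with an unadjusted p of 0.0795 and an edgeR adjusted p of 1. It was -0.66 without LD post-induction 3 and -0.75 without VHD baseline 2. Group means were 3.74 ± 0.82 and 5.61 ± 3.12 CPM in LD, and 4.92 ± 2.28 and 3.13 ± 0.57 CPM in VHD (SD, n = 3), at baseline and post-induction.

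The gene most like *NR4A1* was *HCLS1*, which encodes an actin regulator of blood cells, with r of 0.91, rho of 0.87 and r of 0.91 after subtraction of the group means. It stood at 11.7 CPM in LD post-induction 3 and 8.19 CPM in VHD baseline 2, also its highest values. *DENND2A*, which encodes a protein with a DENN domain, followed with r of 0.86 and rho of 0.54. The summed T and NK cell markers (6 of 10 found, none at 0 in all libraries) were also highest in these libraries, at 16.4 and 16.8 CPM, against 7.15 to 13.1 CPM in the other 10. Kupffer cell and macrophage sums there were 140.9 and 172.6 CPM, against 254.8 CPM in VHD baseline 3. Neutrophil sums were 15.8 and 20.7 CPM, against 34.95 CPM in VHD baseline 3. B and plasma cell sums were 6.52 and 6.77 CPM, against 8.82 CPM in VHD post-induction 2. By group the T and NK sums ran from 7.15 to 9.63 CPM in LD baseline, 11.6 to 16.4 CPM in LD post-induction, 10.9 to 16.8 CPM in VHD baseline and 10.3 to 13.1 CPM in VHD post-induction. Within them *IL7R* alone averaged 4.83 CPM in LD baseline and 7.32 CPM in LD post-induction, and 6.31 and 7.19 CPM in VHD. The 6 markers did not move together. In LD 5 had a response above 0 and 1 below, and in VHD 2 were above and 4 below. The part of these cells in the *NR4A1* values was not tested. *NR4A1* had r of 0.22 with *EGR2* and 0.03 with *GADD45B*, so the early response genes did not share 1 pattern over the libraries.

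*IER5* was near the limit of detection. LD baseline libraries 1, 2 and 3 held 3, 5 and 2 counts and LD post-induction libraries 9, 10 and 2. VHD baseline libraries held 5, 1 and 11 counts and VHD post-induction libraries 0, 3 and 4. The sums were 27 counts at baseline and 28 post-induction, and no level exceeded 0.647 CPM. The 0 of VHD post-induction 1 allows up to 0.414 CPM by the limit of 3 counts, and up to 0.509 CPM by the 95% Poisson interval used for the other genes. In an edgeR fit without the filter the mean response was -0.34 ± 0.67 (adjusted p = 0.967). No difference was detectable at this depth.

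Counted over the 6 comparisons, none of the 3 tested early response genes passed an adjusted p of 0.05 in edgeR. In the mean response the count was 0 of 3, where 0.267% of all tested genes passed (0.25% as lower) and the median log2 change of all genes was 0.07. At an unadjusted p under 0.05 it was 2 of 3, *GADD45B* and *EGR2*, against 7.91% of all genes, and DESeq2 called 1, *GADD45B*, against 2.25%. In the LD response edgeR called 0 of 3 (0% of all genes), with 2 of 3 at an unadjusted p under 0.05 (5.7% of all genes) and 0 with DESeq2 (0.341%). In the VHD response edgeR called 0 of 3 (0% of all genes), with 1 of 3 unadjusted (3.44%) and 1 with DESeq2 (0.537%). The gene in both VHD counts was *GADD45B*.

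For the difference of the responses edgeR called 0 of 3 (0% of all genes), with 0 of 3 at an unadjusted p under 0.05 (1.3%) and 0 with DESeq2 (0.00546%). Between the classes at baseline, the comparison of animals by their later drinking, edgeR called 0 of 3 (0.00544%), with 0 of 3 unadjusted (1.86%) and 0 with DESeq2 (0.00546%). VHD minus LD was -0.10 ± 0.66 (95% interval -1.53 to 1.33) for *GADD45B* and -0.90 ± 0.55 (-2.09 to 0.29) for *EGR2*. For *NR4A1* it was 0.39 ± 0.45 (-0.58 to 1.36). Post-induction, edgeR called 0 of 3 (0%), with 0 of 3 unadjusted (2.44%) and 0 with DESeq2 (0.00546%). The values were -0.29 ± 0.67 (-1.73 to 1.15) for *GADD45B*, -0.08 ± 0.57 (-1.30 to 1.15) for *EGR2* and -0.82 ± 0.45 (-1.79 to 0.15) for *NR4A1*. The intervals leave room for class differences of more than 2-fold in each gene, so they do not show that the classes were alike.

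**Figure D4:**
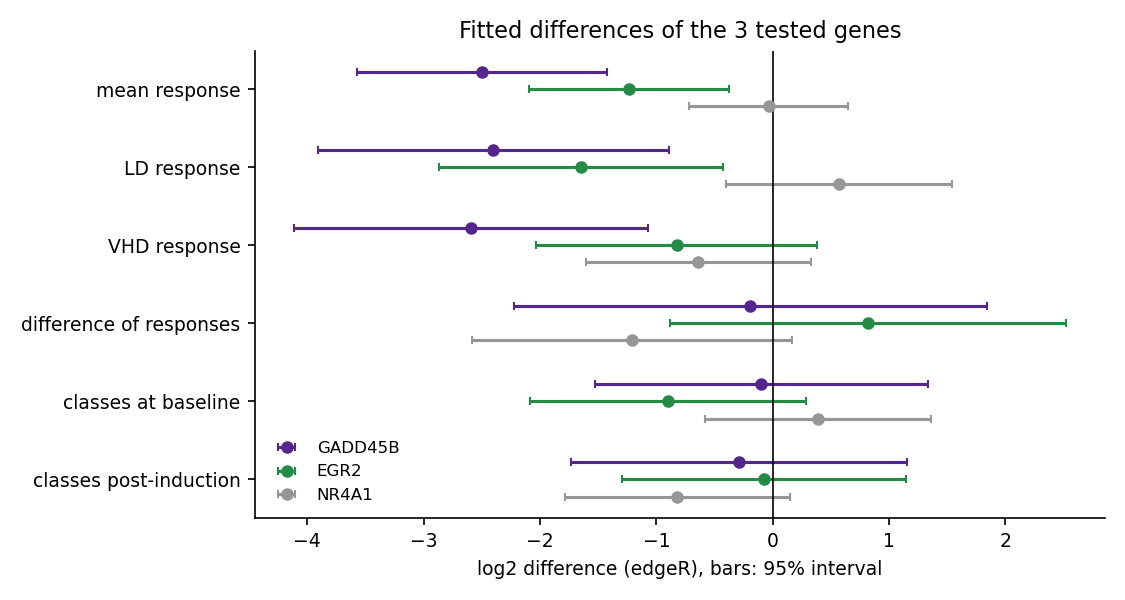
Fitted log2 differences of *GADD45B*, *EGR2* and *NR4A1* in the 6 comparisons, with 95% intervals from the edgeR fit. The intervals of *GADD45B* lie below 0 in the mean, LD and VHD responses and those of *EGR2* in the mean and LD responses, and in the other comparisons every interval spans 0.

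The genes around the measured ones were taken from 8 lists, ordered here from the signal to its targets, and calls refer to the mean response. The lists were chosen with earlier results of these data known, so their counts are descriptions. Not every listed name was found. Matches were 8 of 11 for feedback inhibitors, 11 of 19 for close relatives, 8 of 14 for p53 targets and 13 of 18 for NF-kappaB targets. Names without a match included *DUSP4*, *DUSP5* and *DUSP6* among the feedback inhibitors and *CDKN1A* and *MDM2* among the p53 targets. Over all 18373 tested genes edgeR called 0.25% as lower, 7.91% had an unadjusted p under 0.05, 42.6% of the values were below 0 and the median was 0.07. Of 15 tested growth factor ligands and receptors upstream of ERK, edgeR and DESeq2 called 0 and 1 had an unadjusted p under 0.05. The median of this list was 0.16. The largest values were 0.98 for *AREG*, which encodes amphiregulin, and -0.90 for *HGF*, the hepatocyte growth factor. Of 21 tested RAS, RAF, MEK, ERK, JNK and p38 kinases and their partners, edgeR called 0 (2 at an unadjusted p under 0.05) and DESeq2 1. The median was 0.05, with 10 values below 0. *RPS6KA1*, a kinase activated by ERK, had the largest value (0.83 ± 0.20, edgeR adjusted p = 0.157).

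Of 14 tested genes listed as transcription factors that switch on early genes, 1 fell and 0 rose in edgeR, and 6 had an unadjusted p under 0.05. DESeq2 called 3. In edgeR 12 values were below 0 and the median was -0.28. The gene that fell was *CREM*, a cAMP-responsive factor (-1.28 ± 0.24, edgeR adjusted p = 0.0491, lower in 6 of 6 animals). This call held in 7 of 23 alternatives and was lost with the replicate block (adjusted p = 0.0989 in edgeR). Counts were summed per gene, so isoforms of *CREM* were not told apart and a fall of an activator is not shown. *STAT3*, which carries the interleukin 6 signal, had -1.19 ± 0.27 (edgeR adjusted p = 0.110). Of 8 tested feedback inhibitors of ERK signalling, edgeR called 0 (1 at an unadjusted p under 0.05), or 1 without LD baseline 1, and DESeq2 called 1. The median was 0.02. The inhibitor *SPRY4* had -1.44 ± 0.29 (edgeR adjusted p = 0.0682, lower in 6 of 6 animals).

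Of 11 tested close relatives of the early response genes, edgeR called 0 and 3 had an unadjusted p under 0.05. DESeq2 called 3, and limma voom with a random animal term called 1. The edgeR count was also 1 without LD post-induction 1 or without VHD post-induction 2. In edgeR 8 values were below 0 and the median was -0.61. *GADD45G*, the paralogue of *GADD45B*, had -2.45 ± 0.58 (edgeR adjusted p = 0.143) and was lower in 5 of 6 animals. Its group means were 144.9 ± 99.4 CPM in LD baseline, 17.7 ± 8.10 in LD post-induction, 84.9 ± 66.7 in VHD baseline and 23.3 ± 25.3 in VHD post-induction (SD, n = 3). *NR4A2*, the paralogue of *NR4A1*, had -1.24 ± 0.32 (edgeR adjusted p = 0.179) and was lower in 6 of 6 animals, where *NR4A1* was lower in 2. *DUSP16*, a phosphatase of JNK and p38, had -0.97 ± 0.19 (edgeR adjusted p = 0.065), also lower in 6 of 6.

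Of 26 tested other immediate early genes, 6 fell and 0 rose in edgeR, 12 had an unadjusted p under 0.05, and DESeq2 called 8. This list too was chosen with earlier results of these data known, so its count is no independent support. In edgeR 20 values were below 0 and the median was -0.68. The log2 value was -3.75 ± 0.61 for *JUNB*, -2.91 ± 0.44 for *MYC* and -2.86 ± 0.40 for *ZFP36*, whose product binds AU-rich mRNAs and hastens their decay. It was -2.40 ± 0.27 for the zinc finger factor *KLF6*, -2.08 ± 0.34 for *SGK1*, a serum- and glucocorticoid-induced kinase, and -1.84 ± 0.34 for *FOS*. Each was lower in 6 of 6 animals, and the edgeR adjusted p ran from 0.0117 (*KLF6*) to 0.0423 (*FOS*). Of 23 alternatives, the call held in 21 for *KLF6*, 17 for *ZFP36*, 14 each for *JUNB*, *MYC* and *SGK1*, and 7 for *FOS*. The *GADD45B* value of -2.50 lay within the range of these 6, which were singled out by passing, with a larger standard error than 5 of them. The count of 6 was 1 with the replicate block, which kept *KLF6* (edgeR adjusted p = 0.0177). It was 0 without LD post-induction 2 or without VHD post-induction 1, 1 without LD baseline 3, VHD baseline 1 or VHD post-induction 3, and 2 without LD baseline 2 or LD post-induction 3. It was 3 when VHD post-induction 2 and VHD baseline 3, libraries chosen after seeing the data, were both left out.

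**Figure D5:**
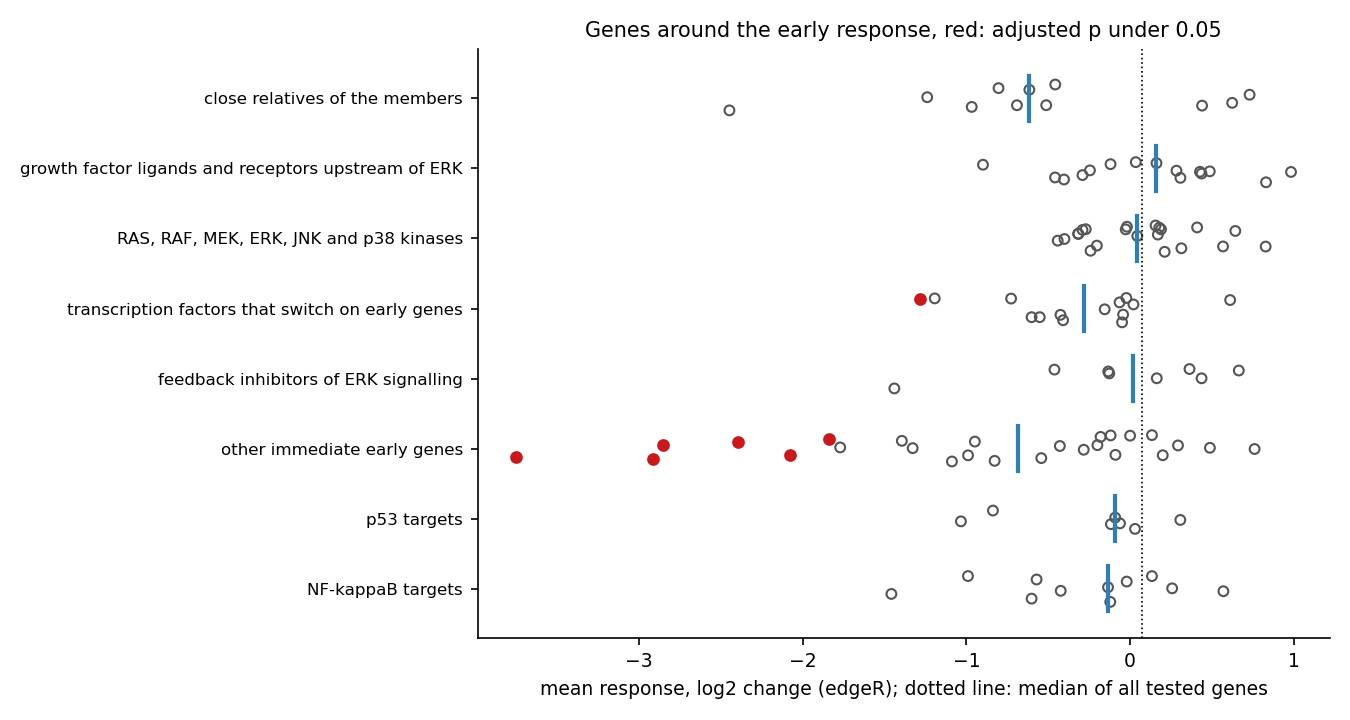
Mean response (log2 change, edgeR) of each tested gene in 8 lists around the early response. Open points did not pass an adjusted p of 0.05 and red points did, the blue bars are list medians and the dotted line is the median of all tested genes at 0.07. The 6 red points of the other immediate early genes lie between -3.75 and -1.84.

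Of 7 tested targets of the tumour suppressor p53, edgeR called 0 (2 at an unadjusted p under 0.05) and DESeq2 1, and the median was -0.09. Of 11 tested NF-kappaB targets edgeR called 0 (3 at an unadjusted p under 0.05) and DESeq2 1. The median was -0.13, with *RELB*, a subunit of NF-kappaB, at -1.46 ± 0.33 (edgeR adjusted p = 0.108).

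Summed markers of liver and blood cells moved in 1 direction in all 6 animals for 1 of 9 lists, the cholangiocyte markers, which were higher post-induction. From baseline to post-induction the summed level was lower in 4 of 6 animals for hepatocyte, stellate cell and neutrophil markers, in 3 for Kupffer cell and sinusoidal endothelial markers and in 2 for T and NK cell and B cell markers. It was lower in 1 of 6 for red blood cell markers and in 0 of 6 for cholangiocyte markers. These ran from 28.5 to 65.4 CPM in LD baseline and from 37.5 to 91.1 CPM in LD post-induction. In VHD the cholangiocyte sums (5 of 6 markers found) ran from 34.0 to 38.3 CPM at baseline and from 38.5 to 61.1 CPM post-induction. Sums are weighted to the genes with the most counts. *EPCAM*, by group mean the largest part of the cholangiocyte sum, was lower in 0 of 6 animals. *KRT7* was lower in 4 and *SPP1*, *CFTR* and *KRT19* in 2 each. Of the 6 tested neutrophil markers, 4 had a mean response above 0 and 2 below, with a median of 0.48. *ALB* averaged 146400 CPM in LD baseline, most of the hepatocyte sum there. No list had a marker at 0 in all 12 libraries. The part of these cells in the early response values was not tested.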

How the data were processed

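Liver RNA of 12 biopsies (4 groups of 3) was prepared from 500 ng with a RIN above 8.5 using NEXTFLEX Combo-Seq and sequenced with reads of 76 bases, per the labels. The authors deposited expected counts per Ensembl transcript, and the submitters' processing notes name Partek, Bowtie, BWA and Mmul_8.0.1. Not given in the sources used here are tool versions, the annotation release and the aligner behind each table. The deposited normalized table holds signal values and entered alternatives only. Symbols came from a separate reference table, in which 15471 of 23993 genes had one, and genes without one took 16.2 to 17.6% of a library's counts. Starts are as deposited and may differ by 1 base.

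Transcripts (40611) were summed per gene and rounded. edgeR 4.0.16 in R 4.3.3 was run with filterByExpr, TMM, a robust quasi-likelihood fit of 4 group means over 12 libraries and Benjamini-Hochberg adjustment over 18373 genes at a threshold of 0.05. A standard error is the log2 value divided by the square root of F, without its sign. DESeq2 1.42.0 and limma 3.58.1 (voom with a random effect of the animal, and trend on log2 of the normalized values plus 1 or 0.1) were alternatives, with RLE and upper-quartile factors, no filter, a filter of 1 CPM in 3 libraries, the compared groups alone, the replicate block and each library left out. Data for 18373 genes were also simulated from the same library sizes, with independent libraries and no effect of the animal or of the first component. In the mean response edgeR recovered 3 of 50 2-fold changes (6%), 30 of 44 4-fold changes (68.2%) and 46 of 50 8-fold changes (92%), with 7 false calls.

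The sample titles number the same animals at both times, so numbers pair the libraries. Deviations of paired libraries from their group means correlated at 0.07, -0.02 and 0.35 in LD and 0.41, -0.35 and 0.10 in VHD. The p-values of the main fit measure the spread among libraries within the groups and treat the paired libraries of an animal as independent. For the responses, only settings with an animal term use the pairing. The genes and lists were chosen with earlier results of these data known. All 9 genes are named. Of each list the text takes genes past the threshold and some of the 3 with the largest change at an average log2 CPM of at least 1, and of like genes the 2 with the highest Pearson r under the same minimum (prior count 2). Some results that this rule takes are not reported here.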

Additional observations from a re-analysis of the deposited data

How the results depend on the processing

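The number of the 3 tested early response genes called in the mean response was 0 as reported, 1 with DESeq2 and 0 to 1 when each library was left out, the 1 being *GADD45B* without VHD baseline 2. In the VHD response DESeq2 called 1. The 49 genes called in all in the mean response became 284 with DESeq2, 4 with the replicate block, 32 without VHD baseline 3 and VHD post-induction 2 and 103 with a term for the side of the first component (both chosen after seeing the data), and 0 to 71 when each library was left out. The replicate block, which used the pairing of the animals, changed no call of *GADD45B* (-2.38), *EGR2* (-1.06) or *NR4A1*. Of the tested genes' values, those that changed sign lay within 2 standard errors of 0 as reported. The mean response of *NR4A1* was 0.036 with upper-quartile factors and -0.31 to 0.12 when libraries were left out. The difference of the responses then ran from -0.29 to 1.21 for *EGR2* and from -0.88 to 0.51 for *GADD45B*. The class difference at baseline ran from -1.29 to 0.21 for *EGR2*, from -0.55 to 0.59 for *GADD45B* (0.030 with the term for the side) and from -0.061 to 0.59 for *NR4A1*. Post-induction it ran from -0.39 to 0.14 for *EGR2* and from -0.71 to 0.41 for *GADD45B*. The cause was not tested. The fit to the compared groups alone gives no value for the mean response or the difference. Depth limits *IER5* most, and *EGR2* and *NR4A1* in the libraries with 10 to 20 counts.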
